A study of Mus musculus with 8 samples.

Results

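Transcripts of 10 cyclic nucleotide phosphodiesterase genes were followed in gastrocnemius, the large calf muscle of the mouse: Pde2a, Pde3a, Pde3b, Pde4a, Pde4b, Pde4d, Pde5a, Pde7a, Pde8a and Pde10a. They were chosen by symbol from a list of phosphodiesterases, the enzyme class that dipyridamole inhibits beside nucleoside transport, and all 10 were among the 21833 gene symbols of the deposited tables. Of the 10, 9 passed the filter on low counts and were tested, and Pde2a did not.

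Phosphodiesterases open the ring of cyclic AMP or cyclic GMP and so end the signal that adenylyl and guanylyl cyclases start. The families differ in substrate: Pde4, Pde7 and Pde8 enzymes act on cyclic AMP, Pde5 enzymes on cyclic GMP, and Pde2, Pde3 and Pde10 enzymes on both. In skeletal muscle, cyclic AMP carries the signal of receptors coupled to the stimulatory G protein, some adenosine receptors among them, and Pde4 enzymes are known as the main route of its breakdown there. Dipyridamole is known to inhibit the Pde5, Pde8 and Pde10 families among others.

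All samples came from male C57BL/6J mice, 12 weeks old, in which arthritis was started by transfer of serum pooled from arthritic K/BxN mice (100 µL into the peritoneum on day 0 and on day 2). RA names the 4 mice with no further treatment. RA+Dipy names the 4 mice that received a daily dose of 25 mg/kg dipyridamole, starting on day 0, and all muscles were collected on day 16. The genotype field of the labels reads K/BxN for both groups although the design text describes serum recipients, and the treatment protocol names dipyridamole for all 8 samples, so groups were taken from the sample titles. All 8 mice had the arthritogenic serum, and no muscle of mice without it was analysed here. No vehicle is named in the labels or the design text. The comparison asks whether transcripts of a target class of the drug differed when it was given from the day of the serum transfer.

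The libraries held 16405268 to 50647761 counts, and 10 markers of skeletal muscle fibres took 17.2% to 21.1% of them. As a share of counts they were lowest in RA replicate 4 (17.2%). RA replicate 4 and RA+Dipy replicate 1, also the libraries with the fewest counts, stood apart: over 3382 well expressed genes their log2 deviation from the 8-library median had an SD of 1.17 and 0.80, against 0.17 to 0.34 in the other 6 libraries. Atp2a1, the calcium pump of fast fibres, had 8217 and 2117 CPM there, against 17760 to 21923 CPM in the other 6. The summed level of 5 erythroid markers was 1545 and 799 CPM, against 149 to 274 CPM. The part of these differences in the results was not tested. Levels are in CPM, the count of a gene relative to the library total scaled by TMM factors. These factors were 0.708 in RA replicate 4 and 0.924 to 1.17 in the others, and a low factor raises every CPM of its library. In CPM the fibre markers summed highest in RA replicate 4, to 243140, against 171226 to 209112 in the others. In whole muscle, fewer cells of a type and less RNA per cell cannot be told apart.

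Of these 10 genes, gastrocnemius expressed mainly those of enzymes that act on cyclic AMP. Genes were set against each other per kilobase of annotated exon (all exons of a gene merged, GENCODE vM21). On this scale Pde4a led with 9.89 ± 5.82 CPM per kilobase (SD, n = 8), followed by Pde7a at 6.55 ± 1.25 and Pde4b at 5.26 ± 1.86. Pde8a at 2.61 ± 1.07 and Pde4d at 2.40 ± 1.30 came next. A step down stood Pde3b at 0.593 ± 0.463, Pde5a at 0.419 ± 0.141 and Pde3a at 0.392 ± 0.0559, and Pde10a was lowest of the tested members at 0.122 ± 0.0734. Among the genes tested, the level of Pde4a lay at percentile 78.3, that of Pde7a at 70.9, and that of Pde10a at 3.22.

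Neighbours in this order were compared within each library. Pde4b was above Pde8a, and Pde4d above Pde3b, in 8 of 8 libraries. In RA replicate 4 alone, Pde5a was above Pde4d and Pde8a. Within the upper group Pde4a was above Pde7a, and Pde7a above Pde4b, in 6 of 8 libraries each. Pde8a was above Pde4d in 5 of 8, so on this scale the order of these pairs varied between libraries. Pde3b was above Pde5a in 5 of 8 and Pde5a above Pde3a in 4 of 8, and their order varied as well. Differences between neighbours were not tested. Pde3a was above Pde10a in every library. The length used matters: per kilobase of the longest annotated transcript, Pde4b at 12.9 and Pde4d at 6.84 CPM per kilobase moved up to the second and the fourth place. On that scale Pde4b was above Pde7a, Pde4d above Pde8a and Pde5a above Pde3a in 8 of 8 libraries. The order of these 3 pairs thus depended on the length used. Pde3a was above Pde10a in 7 of 8 on that scale.

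**Figure D1:**
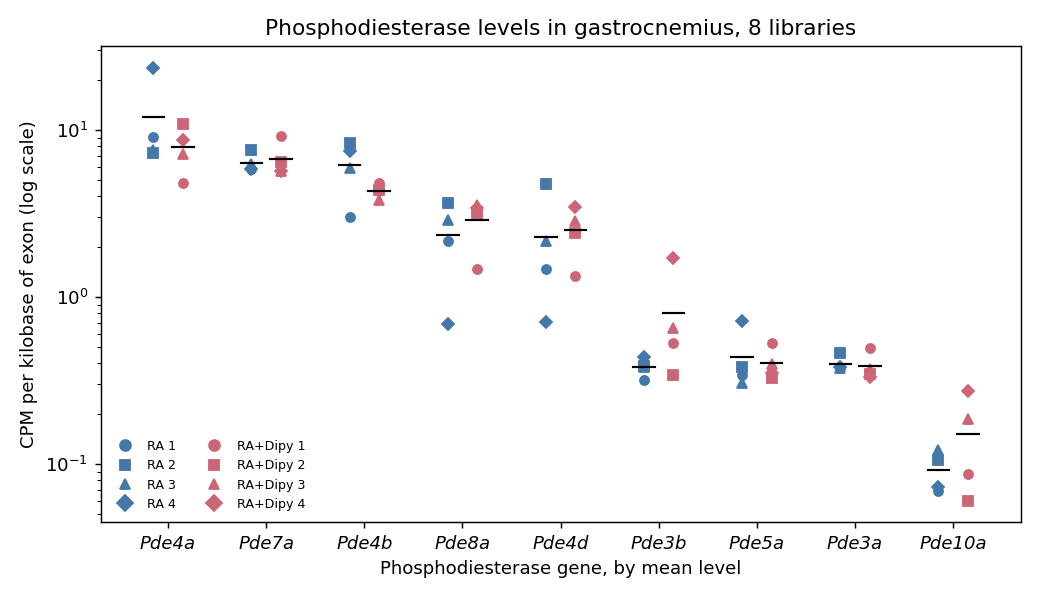
Level of 9 phosphodiesterase genes (CPM per kilobase of exon, log axis) in each of the 8 libraries, RA in blue and RA+Dipy in red, with the group means as black bars. Pde4a, Pde7a and Pde4b lead with means of 9.89, 6.55 and 5.26 over all libraries, and Pde10a is lowest at 0.122.

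As shares of the summed level of the 10 genes, the 5 genes of the Pde4, Pde7 and Pde8 families took 90.5% to 96.1% in each library. The 3 Pde4 genes alone took 60.7% ± 9.1 (SD, n = 8), or 59.8% ± 2.3 over the 6 libraries without RA replicate 4 and RA+Dipy replicate 1. The genes of enzymes with both substrates took 2.2% to 8.3%, with the highest value in RA+Dipy replicate 4, and Pde5a took 1.2% to 2.3%. Pde5a, Pde8a and Pde10a, members of some of the families that dipyridamole is known to inhibit, took 11.6% ± 3.9 together, most of it Pde8a (9.63%). Over the same 6 libraries they took 13.3% ± 1.9. Dipyridamole is known to inhibit other families as well, so these genes do not cover all its targets. The shares given here are of transcript, and enzyme amounts were not measured. The share of Pde5a, Pde8a and Pde10a depends on the length used: per kilobase of the longest transcript it was 7.49%, with Pde8a at 5.94%. The share of Pde4a, the leading gene, was 37.6% ± 16.2 for RA against 29.7% ± 7.3 for RA+Dipy (SD, n = 4 each; exact permutation p = 0.429, two-sided, of 70 assignments). It was 59.2% in RA replicate 4, and without the 2 libraries that stood apart the difference had the other sign, with 30.4% in RA and 32.8% in RA+Dipy (n = 3 each; exact permutation p = 0.8, where 3 against 3 cannot go below 0.1).

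**Figure D2:**
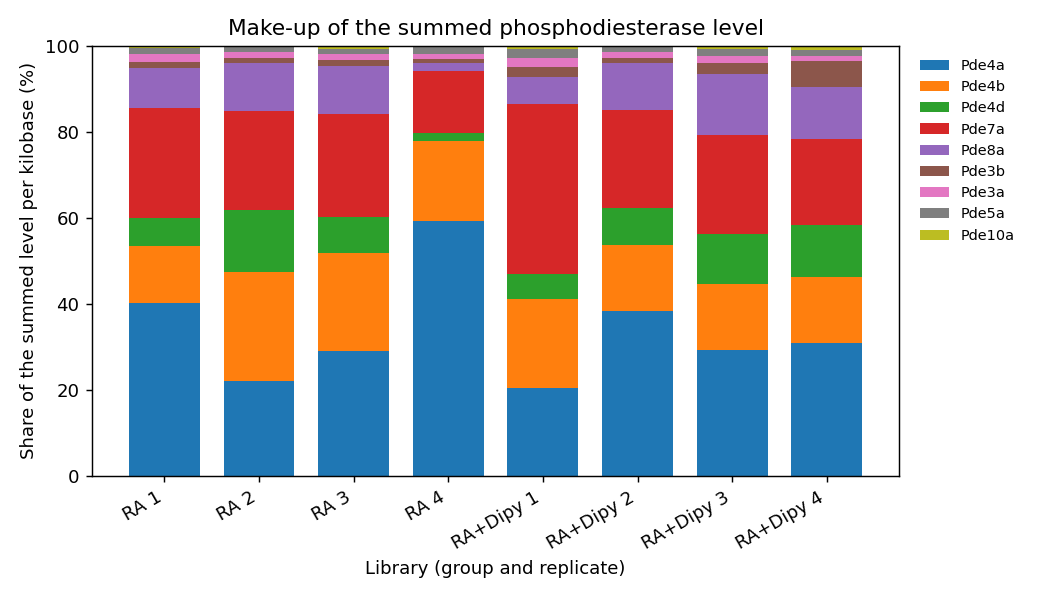
Share of each gene in the summed phosphodiesterase level per kilobase (%), stacked for each of the 8 libraries. Pde2a, at most 0.230% as counted, is not drawn. Pde4a, Pde4b, Pde4d, Pde7a and Pde8a fill 90.5% to 96.1% of every bar, while RA replicate 4 (59.2% Pde4a) and RA+Dipy replicate 1 (39.5% Pde7a) differ from the other 6 in make-up.

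No member passed the test between RA+Dipy and RA. By edgeR's quasi-likelihood test with Benjamini-Hochberg adjustment, 0 of 9 passed in either direction (adjusted p under 0.05), as did 0.0% of the 12755 genes tested (488 genes, 3.83%, at an unadjusted p under 0.05). DESeq2 and limma-voom also called 0 genes, with 740 and 379 at an unadjusted p under 0.05. At that unadjusted level 1 of the 9 members stood, Pde3b, which was higher (1.68% of all genes were higher at that level). The values of the groups overlapped for all 9 members, while over all genes tested they did not overlap for 2.72% (1.46% higher and 1.26% lower in RA+Dipy). Log2 fold changes (RA+Dipy over RA) were above 0 for 5 members and below 0 for 4, with a median of 0.08, against 52.2% above 0 and a median of 0.02 over all genes tested.

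**Figure D3:**
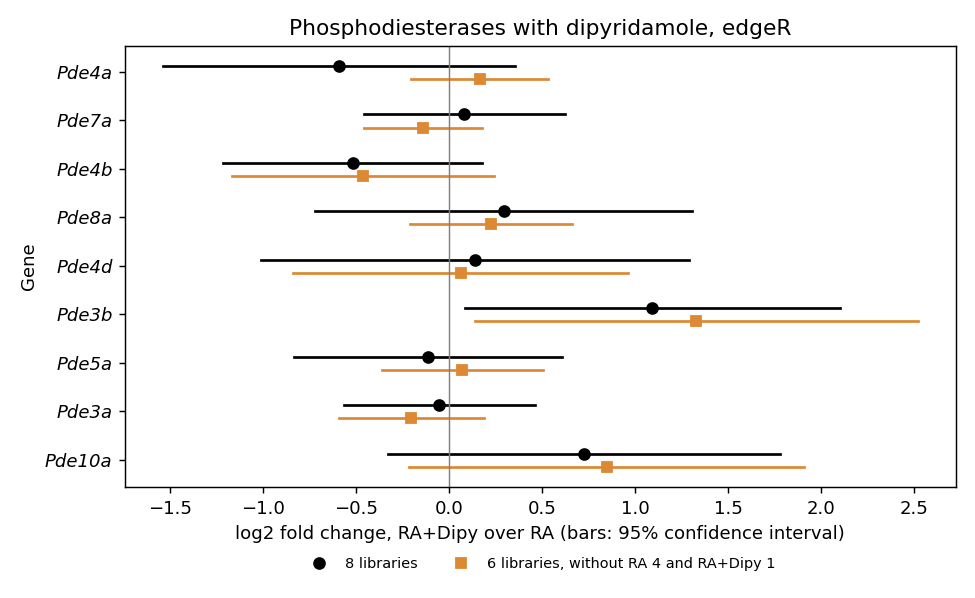
Log2 fold change of each tested phosphodiesterase (RA+Dipy over RA, edgeR) with its 95% confidence interval, for all 8 libraries (black circles) and for the 6 without RA replicate 4 and RA+Dipy replicate 1 (orange squares). Pde3b is farthest from 0 (1.09 and 1.33), and the Pde4a estimate goes from −0.59 to 0.16.

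Pde4a encodes a cyclic AMP-specific enzyme and lies on chromosome 9 at 21165714 to 21213248 (GRCm38). It stood at 69.5, 55.9, 58.0 and 181 CPM in RA replicates 1 to 4 and at 36.6, 82.8, 55.2 and 66.5 CPM in RA+Dipy replicates 1 to 4. The highest and the lowest value came from the 2 libraries that stood apart, and the other 6 lay between 55.2 and 82.8 CPM. Its log2 fold change was −0.59 (SE 0.43, adjusted p = 0.882, edgeR). Without RA replicate 4 it was −0.01, and without both libraries 0.16 (95% confidence interval −0.21 to 0.53).

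Pde4b, known for its part in leukocyte inflammatory signalling, lies on chromosome 4 at 102087543 to 102607259. RA replicates 1 to 4 had 31.7, 88.5, 62.7 and 78.9 CPM and RA+Dipy replicates 1 to 4 had 50.9, 45.8, 40.03 and 45.8. In 3 of 4 RA libraries Pde4b was above every RA+Dipy library, and in RA replicate 1, the deepest library, it was below them all. Its log2 fold change was −0.52 (SE 0.31, 95% confidence interval −1.21 to 0.18, adjusted p = 0.882, edgeR), and −0.47 without the 2 libraries that stood apart. With each library left out in turn it ranged from −0.75 (without RA replicate 1) to −0.34 (without RA replicate 2). The unadjusted p was 0.127 with all 8 libraries and 0.0179 without RA replicate 1 (adjusted p = 0.964, edgeR). Without any other single library it was 0.127 to 0.327. The SD over the RA libraries was 24.9 CPM and that over the RA+Dipy libraries 4.46 CPM. A difference in spread was not tested. The summed level of 8 macrophage markers was 112 to 267 CPM in RA and 150 to 316 CPM in RA+Dipy, with all 8 detected in every library. The median log2 fold change of these markers was 0.78, with 7 of 8 above 0 (52.2% of all genes tested). Of the 8, 3 stood at an unadjusted p under 0.05 (edgeR), against 3.83% of all genes tested. T cell markers summed to 1.32 to 3.55 CPM and neutrophil markers to 0.27 to 3.43 CPM over the 8 libraries, with Cd3d, Cd3g, Cd8a, Lck and Cd2 and with Ly6g, Mpo, Camp and Cxcr2 at 0 counts in some. The part of leukocytes in the values of Pde4b was not tested.

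Pde4d, whose long forms bind to anchoring proteins near the calcium release channel of muscle, spans a locus on chromosome 13 at 108449948 to 109953461. It stood at 17.7, 57.2, 26.1 and 8.54 CPM in RA and at 16.1, 29.0, 34.0 and 41.6 CPM in RA+Dipy. The RA values enclosed all the RA+Dipy values, with RA replicate 2 highest and RA replicate 4 lowest. The log2 fold change was 0.14 (SE 0.52, 95% confidence interval −1.01 to 1.29). Its SD of log2 CPM within groups, 0.91, lay at percentile 90.4 of the genes tested, whose median was 0.49. RA replicate 2, highest for Pde4d, was highest for Pde4b as well, and without it the estimate for Pde4d was 0.79.

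Pde7a, which encodes a cyclic AMP-specific enzyme of high affinity, was the steadiest of the abundant members. It stood at 44.9, 58.9, 48.5 and 45.0 CPM in RA and at 71.5, 49.7, 43.9 and 43.9 CPM in RA+Dipy. All but RA+Dipy replicate 1 lay between 43.9 and 58.9 CPM. Its SD of log2 CPM within groups was 0.27, at percentile 13.9 of the genes tested, and the log2 fold change was 0.08 (SE 0.24, 95% confidence interval −0.46 to 0.62). Pde7a lies on chromosome 3 at 19223108 to 19311322.

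Pde8a, whose product binds cyclic AMP tightly and is not inhibited by the common methylxanthines, lies on chromosome 7 at 81213596 to 81334533. It stood at 8.71, 14.7, 11.6 and 2.79 CPM in RA and at 5.94, 12.6, 14.3 and 13.8 CPM in RA+Dipy. The lowest value of each group came from the library that stood apart. For Pde8a the log2 fold change was 0.29 (SE 0.46), 0.01 without RA replicate 4 and 0.23 without both libraries (95% confidence interval −0.21 to 0.66).

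Start sites of these genes were searched for the cyclic AMP response element, since several phosphodiesterase genes are known to be induced by the signal that they end. RefSeq windows of 300 bases (GRCm38.p6) matched 7 of the 10 members, with 17 windows. The full element, TGACGTCA, was in 0 of the 17 windows and in 1.79% of the 32851 windows of all genes. Its core, TGACG on either strand (which lies within the full element), was in 4 of 17, in 1 window each of Pde2a, Pde4a, Pde4b and Pde8a, and in 20.8% of all windows. For 3 of these genes the core lay within 100 bases before the start site, and those bases are shown on the plus strand, 5′ to 3′, with TGACG or its reverse complement CGTCA in capitals, at chr9:21184001-21184100 for Pde4a, chr4:102421455-102421554 for Pde4b and chr7:81213165-81213264 for Pde8a.
Pde4a: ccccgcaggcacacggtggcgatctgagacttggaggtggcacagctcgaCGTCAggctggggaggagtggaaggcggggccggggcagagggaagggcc
Pde4b: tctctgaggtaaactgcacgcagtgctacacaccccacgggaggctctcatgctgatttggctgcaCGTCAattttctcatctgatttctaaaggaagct
Pde8a: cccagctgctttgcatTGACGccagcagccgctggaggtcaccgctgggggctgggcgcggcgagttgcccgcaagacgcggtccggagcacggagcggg
A match describes these letters and shows no binding. Start sites here are those of RefSeq, and for Pde8a the bases shown lie well before the GENCODE start at 81213596. Counts per gene do not tell which of the start sites of Pde4a (3 windows) or Pde4b (4 windows) was used in muscle.

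The 2 libraries that stood apart held some members at high and others at low levels. Set against the mean of the other 6 libraries, Pde8a and Pde4d were lower in both, at −2.13 and −1.90 log2 units (RA replicate 4) and at −1.06 and −0.99 (RA+Dipy replicate 1). Pde4a was highest of the members in RA replicate 4, at 1.498, and lower, at −0.80, in RA+Dipy replicate 1. Pde5a was higher in both, by 1.03 and 0.59. GC content moved with the deviations over all well expressed genes: in the quintile with the most GC the median deviation was 0.75 for RA replicate 4 and −0.26 for RA+Dipy replicate 1, and in the quintile with the least it was −0.60 and 0.43. The longest transcript of Pde4a has 57.2% GC and falls in the upper quintile. Those of Pde4d (49.8%) and Pde8a (49.2%) fall in the middle quintile, whose median deviations were 0.07 and 0.02. Pde5a (46.8% GC) and Pde4b (45.9%) fall in the quintile above the lowest, where the median deviation in RA replicate 4 was −0.32, while their own deviations there were 1.03 and 0.67. The other 6 libraries moved less with GC. From the quintile with the least GC to that with the most, the median went from −0.09 to 0.27 in RA replicate 1. It went from 0.11 to −0.12 in RA replicate 2 and from 0.03 to 0.16 in RA replicate 3. In RA+Dipy replicates 2, 3 and 4 it went from −0.02 to 0.03, from −0.02 to −0.15 and from −0.03 to −0.20. The part of GC content in these values was not tested.

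**Figure D4:**
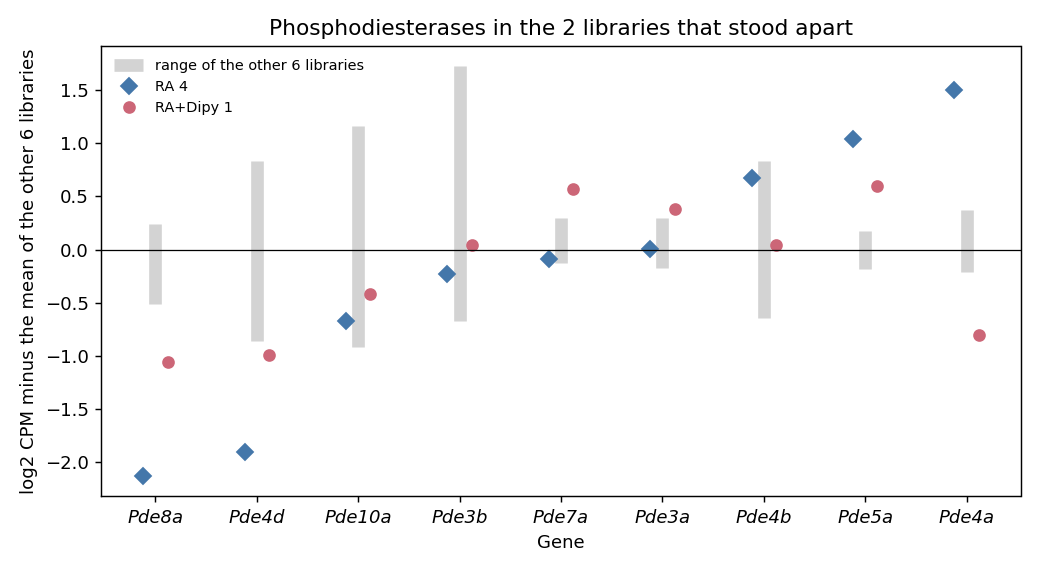
Deviation of each phosphodiesterase in RA replicate 4 (blue diamonds) and RA+Dipy replicate 1 (red circles) from the mean of the other 6 libraries, in log2 CPM, with the range of those 6 as grey bars. Pde8a (−2.13) and Pde4d (−1.90) are lowest in RA replicate 4, and Pde4a (1.498) is highest there.

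Pde3b, the insulin-regulated enzyme that restrains fat breakdown in adipocytes, had the largest estimate of the members. It stood at 2.90, 3.53, 3.48 and 3.97 CPM in RA and at 4.82, 3.10, 5.93 and 15.6 CPM in RA+Dipy. In 3 of 4 RA+Dipy libraries Pde3b was above all RA libraries, and replicate 2 lay among them. The log2 fold change was 1.09 (SE 0.45, 95% confidence interval 0.08 to 2.10, unadjusted p = 0.0364, adjusted p = 0.882, edgeR). The highest library decided much of the size: without RA+Dipy replicate 4 the estimate was 0.42 (SE 0.31). That library also held the most fat cell RNA. Adipoq, the fat cell hormone adiponectin, was at 101 CPM there, while the other 7 libraries had 10.4 to 24.0 CPM, and the summed level of 8 fat cell markers was 1516 CPM, against 407 to 917 CPM in RA and 532 to 909 CPM in the other RA+Dipy libraries. All 8 markers were detected in every library; their median log2 fold change was 0.76, and their part in the result was not tested. Pde3b lies on chromosome 7 at 114415281 to 114539251 and shares no exon bases with another annotated gene.

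Pde10a, known from the striatum of the brain, was close to the limit of the test, with 11 to 88 counts per library. It stood at 0.886, 1.35, 1.56 and 0.930 CPM in RA and at 1.12, 0.775, 2.39 and 3.52 CPM in RA+Dipy. RA+Dipy replicates 3 and 4 were above all RA libraries and replicate 2 was below them. For Pde10a the log2 fold change was 0.72 (SE 0.47, 95% confidence interval −0.33 to 1.78), and 0.27 without RA+Dipy replicate 4, the library with the most Adipoq.

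**Figure D5:**
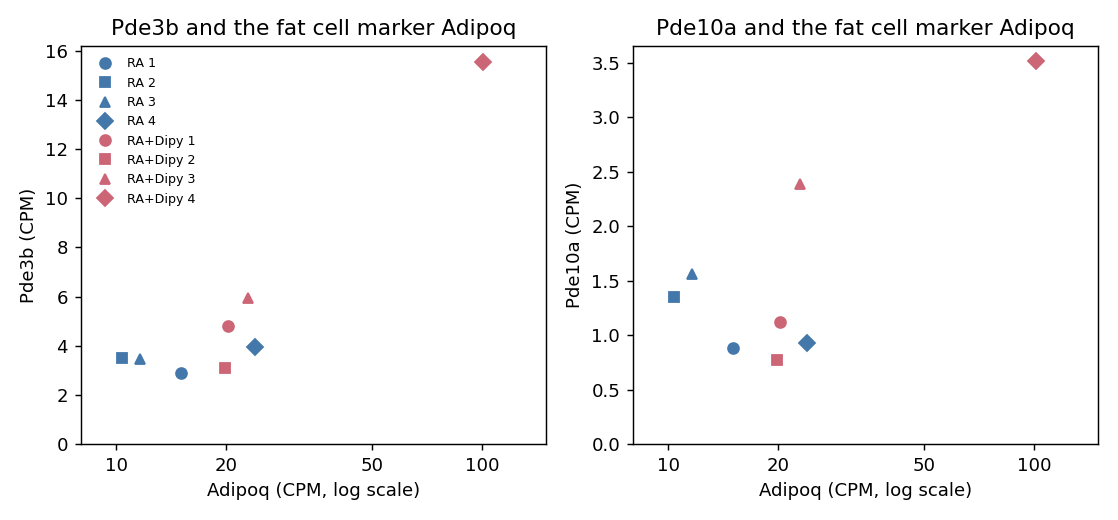
Pde3b (left) and Pde10a (right) in CPM against the fat cell marker Adipoq (CPM, log axis), a point per library. RA+Dipy replicate 4 lies alone at 101 CPM of Adipoq, with 15.6 CPM of Pde3b and 3.52 CPM of Pde10a.

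Pde3a, the form of heart, platelets and vascular smooth muscle, hardly varied. It stood at 4.79, 5.91, 4.80 and 4.82 CPM in RA and at 6.27, 4.43, 4.70 and 4.24 CPM in RA+Dipy, and its SD of log2 CPM within groups, 0.21, lay at percentile 6.50. The log2 fold change was −0.05 (SE 0.23, 95% confidence interval −0.57 to 0.46). Of its exon bases, 5.82% are shared with a gene on the opposite strand, whose reads cannot be told apart without strand.

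Pde5a, the cyclic GMP-specific enzyme of vascular smooth muscle that sildenafil inhibits, stood at 3.35, 3.74, 3.01 and 7.10 CPM in RA and at 5.21, 3.21, 3.89 and 3.44 CPM in RA+Dipy. The highest value of each group came from the library that stood apart, and the other 6 lay between 3.01 and 3.89 CPM. The log2 fold change was −0.11 (SE 0.32) with all libraries and 0.07 (95% confidence interval −0.36 to 0.50) without those 2. The summed level of 10 smooth muscle and pericyte markers was also highest in RA replicate 4 (1060 CPM, against 615 to 720 CPM in the other 7 libraries). That order rested on the scaling, as the TMM factor was 0.708 in RA replicate 4 and 0.924 to 1.17 in the others. The markers summed to 620 CPM in RA+Dipy replicate 1, where Pde5a was high too. The part of these cells in the result was not tested.

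Pde2a, which encodes the dual enzyme that cyclic GMP stimulates, had 34 counts over all 8 libraries, with 11, 2, 7 and 0 in RA and 5, 6, 0 and 3 in RA+Dipy. A count of 0 allows up to 0.254 CPM in RA replicate 4 and 0.115 CPM in RA+Dipy replicate 3 (3 counts, counting error only). In GENCODE vM21 the gene, on chromosome 7 at 101421691 to 101512827, overlaps Gm45837, a protein-coding gene on the same strand at 101410886 to 101512819, and 92.3% of the bases of its longest transcript are also exon bases of Gm45837. Gm45837 stands in the deposited tables as well, with 2 counts in 1 library and 0 in the other 7. Reads that fall on exons of 2 genes are left out by HTSeq in its default mode. Apart from strand, the counting mode is not given in the sources used. Pde2a is among 187 genes with at least 90% of the longest transcript shared with a protein-coding gene on the same strand, of which 6 (3.21%) passed the low-count filter, against 59.4% of the other genes with a length. Over all annotated exons Pde2a shares 64.3% of bases. Set over the 2194 unshared exon bases alone, its mean level was 0.0702 CPM per kilobase, below that of Pde10a. The part of shared exons in the low counts of Pde2a was not tested, and its level and share over all exons carry the same limit.

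Of 14 other phosphodiesterase genes, 9 passed the filter on low counts and 0 passed the test, with a median log2 fold change of −0.08. Pde6d, whose product carries lipid-modified proteins and has no catalytic site, had 22.8 ± 10.8 CPM in the RA libraries and 27.2 ± 0.624 CPM in those of RA+Dipy (SD, n = 4 each), with 7.52 CPM in RA replicate 4. Pde7b, the other cyclic AMP-specific Pde7 gene, had means of 19.8 ± 11.6 and 18.6 ± 8.01 CPM (−0.08 on the log2 scale, and 0.64 without the 2 libraries that stood apart). Pde4c, the last of the Pde4 genes, had an estimate of −1.02 (SE 0.45, unadjusted p = 0.0471, adjusted p = 0.882, edgeR). Its level was 8.71 CPM in RA replicate 4 and 1.45 to 2.73 CPM elsewhere, and the estimate was −0.38 without that library. The calmodulin-dependent Pde1a, Pde1b and Pde1c had log2 fold changes of 0.64, 0.08 and 0.05. Those of Pde8b, the cyclic GMP-specific Pde9a and Pde6g, an inhibitory subunit of the retina, were −0.11, −0.33 and −0.86.

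Around the phosphodiesterases, 0 genes of the cyclic nucleotide pathway passed the test. That covered 8 tested adenylyl cyclases (median log2 fold change 0.13), 4 guanylyl cyclases (0.34), 15 kinase subunits and other effectors (0.05), 14 anchors and partners (−0.05), 11 receptors and G proteins (0.29) and 8 transcription factors (0.00). With each library left out in turn, the median ranged from −0.16 (without RA+Dipy replicate 4) to 0.58 (without RA replicate 2) for receptors and G proteins, from 0.06 to 0.55 for guanylyl cyclases, from −0.04 to 0.35 for adenylyl cyclases, from −0.05 to 0.09 for effectors and from −0.21 to 0.03 for anchors. The abundant cyclase Adcy2 had 33.8 ± 11.3 CPM (RA) and 34.9 ± 4.82 CPM (RA+Dipy), and Adcy6 at 16.9 ± 4.76 and 19.7 ± 9.44. The natriuretic peptide receptor cyclase Npr2 stood at 34.9 ± 12.8 and 36.1 ± 14.3 CPM, and Npr1 at 27.2 ± 21.6 and 12.8 ± 1.61. Npr1 had an estimate of −1.08 (SE 0.45), which was −0.35 without RA replicate 4. Pde4dip, myomegalin, a scaffold that binds Pde4d, was the most abundant of the pathway genes at 2172 ± 304 and 1851 ± 573 CPM (−0.23 on the log2 scale, SE 0.32). The scaffold Rack1, which binds a long form of Pde4d, stood at 394 ± 42.5 and 386 ± 171 CPM. The protein kinase A inhibitor Pkia stood at 405 ± 88.4 and 548 ± 305 CPM, and the regulatory subunit Prkar2a at 390 ± 333 and 234 ± 80.2. The effectors summed to 1846 CPM in RA replicate 4, against 1204 to 1378 CPM in the other RA libraries, and to 1929 CPM in RA+Dipy replicate 1. The inhibitory G protein subunit Gnai2 had a log2 fold change of −0.49. The receptors and G proteins summed to 292 CPM in RA replicate 4 and to 158 to 164 CPM in the other RA libraries. The coactivator Crebbp and the factor Atf1 had log2 fold changes of −0.95 and 0.12. The estimate for Crebbp was 0.24 without RA replicate 4 and −0.33 without both libraries that stood apart.

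The genes most like each member over the 8 libraries were sought by the mean absolute difference in log2 CPM after each gene was centred on its mean. For Pde7a these were Tmem41b and Pum2, both at 0.05 log2 units, where the median over all genes was 0.40. For Pde8a they were Golph3l (0.07) and Dnajc13 (0.08), and for Pde4d the genes 4932438A13Rik and Trappc8 (both 0.13). Rtl5 and Map2k7 were nearest to Pde4a (both 0.11), and Jade2 (0.18) and Smpd3 (0.19) to Pde4b. Nearest to Pde3b were Casr (0.19) and Aldh1a7 (0.21), to Pde10a Lonrf2 (0.21) and Atp8b1 (0.25), to Pde3a Ncbp2 and Cdc42ep3 (both 0.07), and to Pde5a Prrc2c and Polr3g (both 0.06). Of pairs of members, Pde3a and Pde7a were closest at 0.09, followed by Pde4d and Pde8a at 0.24. All these genes share the 8 libraries, and the nearest genes depended on the 2 that stood apart. Over the other 6 libraries, Rtl5 ranked 107 and Map2k7 218 among the genes nearest to Pde4a, and Smpd3 ranked 64 for Pde4b. Ncbp2 ranked 151 for Pde3a, Dnajc13 124 for Pde8a, Prrc2c 102 for Pde5a and Tmem41b 49 for Pde7a. Polr3g ranked 1 for Pde5a, Lonrf2 2 for Pde10a, Cdc42ep3 3 for Pde3a, Golph3l 3 for Pde8a and Jade2 4 for Pde4b. For Pde3b, Casr ranked 8 and Aldh1a7 11, and for Pde4d, Trappc8 ranked 18 and 4932438A13Rik 38.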

How the data were processed

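Poly(A) RNA of 8 gastrocnemius samples was sequenced as single reads of 100 nt. The authors deposited raw read counts per protein-coding gene, 1 table per library, not normalized. Per the design text and the submitters' processing notes, trimming used fastp 0.20.0, alignment STAR 2.7.3a with GRCm38.p6 as the genome, and counting HTSeq without strand. No annotation release is named there. The labels name a TruSeq system and the design text a directional NEBNext kit.

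Each table held 21859 lines, and the counts of 24 symbols on more than 1 line were summed. Libraries of a group differed by more than sampling noise (smallest chi-square per degree of freedom 27.7). Genes were filtered with filterByExpr (minimum count 10) and TMM factors were applied. RA+Dipy was set against RA by edgeR 4.0.16 in R 4.3.3 (quasi-likelihood, robust, two-sided) on 12755 genes, with Benjamini-Hochberg adjustment and a threshold of 0.05. SE and 95% intervals come from that fit. DESeq2 1.42.0 and limma 3.58.1 were alternatives. The code was tested on simulated data. Exon lengths, exon sharing and GC content come from GENCODE vM21. Intervals and limits cover counting error or the spread between these mice.

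The members and the lists of pathway and marker genes were chosen with earlier results of these data known. The text names all members, every other phosphodiesterase that passed the filter, the 2 genes of each pathway list with the highest mean CPM, and the 2 genes nearest to each member, except 1 pathway gene that is not reported here. The search for shared exons and the GC values were added after the data were seen.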

Additional observations from a re-analysis of the deposited data

Results flagged for a closer look

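In 22 groups of 4 values, 2 held a library whose gap to the nearest other library took nearly the whole range of its group, by Dixon's test at the 95% level. Chance flags about 5% of such groups. Pde4a stood at 181 CPM in RA replicate 4, against 55.9 to 69.5 CPM in the other RA libraries, a gap of 0.892 of the range. Pde3a stood at 5.91 CPM in RA replicate 2, against 4.79 to 4.82 CPM in the others, a gap of 0.972 of the range.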

How the results depend on the processing

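Of 19 alternatives, limma-voom with library weights was the sole one with calls, 111 genes higher and 22 lower, and 0 members passed in any. Pde3b, Pde4b, Pde8a and Pde10a kept the sign of their log2 fold change under all 19. The sign of Pde3a (−0.05) turned with upper-quartile factors (0.0011) and with library totals alone (0.0580), was −0.204 without both libraries that stood apart, and its range was −0.19 to 0.0289 when each library was left out in turn. Without both libraries that stood apart, Pde4a was at 0.16, Pde5a at 0.07 and Pde7a at −0.14. Pde5a was at 0.0791 with library totals alone and, like Pde7a, turned with library weights (0.17 and −0.10). Leaving out each library in turn gave −0.14 to 0.79 for Pde4d, −0.27 to 0.24 for Pde5a, −0.11 to 0.18 for Pde7a and −0.78 to −0.01 for Pde4a. The cause of these turns was not tested. The difference in the share of Pde4a, −7.89 percentage points, was 2.37 without both libraries and −13.1 to −0.70 with each left out. Per kilobase of the longest transcript, levels were 16.3 for Pde4a, 12.9 for Pde4b, 6.84 for Pde4d, 8.06 for Pde7a and 0.202 for Pde10a. The median log2 fold change of all genes was 0.02, and 0.16 with library totals alone. Medians of pathway lists moved beyond the spread between replicates in 12 of 133 values, the receptors and G proteins among them (−0.16 without RA+Dipy replicate 4). On plain counts, Pde5a, Pde8a and Pde10a took 7.07% together. Deviations of same-numbered libraries from their group means correlated at −0.31, 0.20, 0.27 and −0.42, and 1 of 8 libraries correlated best with its own number. The libraries that stood apart enter these group means, so the correlations cannot tell whether the replicate numbers pair the mice. With a replicate block, 0 genes passed (165 at an unadjusted p under 0.05), and Pde3b was at 0.82 and Pde4a at −0.47.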

Other observations

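Genes of the cyclic AMP pathway with an unadjusted p under 0.05 were looked at after their values were seen. None passes after adjustment (adjusted p = 0.882 for each of these 4, edgeR). They were 1 of 8 adenylyl cyclases, 2 of 11 receptors and G proteins and 1 of 15 effectors tested. Of the 14 anchors and partners and the 8 transcription factors, 0 stood at that level. Over all genes tested the share was 3.83%. Ptgir, the prostacyclin receptor, which raises cyclic AMP, stood at 1.93, 1.42, 1.68 and 1.35 CPM in RA and at 3.17, 2.14, 2.43 and 3.04 CPM in RA+Dipy (log2 fold change 0.74, SE 0.27). All 4 RA+Dipy libraries were above all RA libraries, and without the 2 libraries that stood apart the estimate was 0.59. Adora2b, an adenosine receptor that raises cyclic AMP, stood at 0.689, 0.712, 0.586 and 0.254 CPM in RA and at 1.98, 0.923, 1.12 and 0.760 CPM in RA+Dipy, again without overlap (1.00, SE 0.42), and the estimate was 0.49 without those 2 libraries. These levels are near the counting floor: 0.254 CPM in RA replicate 4 is 3 counts, and the groups came as close as 0.712 and 0.760 CPM. Adcy4, an adenylyl cyclase, was lower in every RA+Dipy library (7.26 to 9.20 CPM) than in any RA library (11.4 to 21.7 CPM), with an estimate of −0.81 (SE 0.27) and of −0.48 without those 2 libraries. Groups that do not overlap made up 2.72% of all genes tested. Because these genes were picked by a small p, the lack of overlap adds no support.

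Prkar2b, the regulatory subunit of protein kinase A that is abundant in fat, reached 30.8 CPM in the RA+Dipy library of replicate 4, while the other 7 libraries had 2.07 to 6.25 CPM. In that library Adipoq (101 CPM) and Pde3b (15.6 CPM) were highest as well. Its log2 fold change of 1.71 (SE 0.71) was 0.41 without that library.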
